A study of Mus musculus with 4 samples.

Results

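The receptors for IL-2, IL-7 and IL-15, together with the closely related IL-21 receptor, are assembled from a small set of chains. Of the 33696 genes in the count matrices of this series, 6 encode the chains followed here: *Il2ra*, *Il2rb*, *Il2rg*, *Il7r*, *Il15ra* and *Il21r*. They were chosen by symbol, all 6 were detected in both libraries, and none of them was used to cluster or to name the cells. Their transcripts were measured across γδ T cell subsets, naive and effector αβ T cells, regulatory T cells, NK cells and innate lymphoid cells of the mouse liver.

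Livers of mice that carry both *Stab2-CrexERT2* and *R26-LSL-tdT* (genotype S2 in the labels) were the source of the CD45+ cells. Tamoxifen was given at E9.5 and the mice were 2 months old when cells were sorted. In this line *Stab2* drives the Cre, so that cells with an active *Stab2* gene at the time of tamoxifen, and whatever descends from them, carry tdTomato. The tdTomato+ and the tdTomato- cells share the alleles, the tamoxifen and the age. Each sort gave 1 gene expression library with 10x 5' v3 chemistry and 1 of amplified γ and δ receptor chains, tdTomato+ as batch 1 and tdTomato- (named control in the labels) as batch 2. Sort and batch therefore cannot be told apart, the number of pooled animals was not given in the sources used here, and with 1 library per sort no test between sorts was possible: intervals below are 95% exact intervals that cover counting error only.

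The common γ chain, encoded by *Il2rg*, is shared by the receptors for IL-2, IL-4, IL-7, IL-9, IL-15 and IL-21, and pairs in each of them with a chain that gives the ligand its specificity. *Il2rb* encodes the β chain that the IL-2 and IL-15 receptors have in common, *Il2ra* encodes CD25, which raises the affinity for IL-2, *Il15ra* encodes the chain that holds IL-15 on the presenting cell, and *Il7r* encodes CD127, the chain for IL-7 and, with *Crlf2*, for TSLP. These receptors signal through JAK1 and JAK3 to STAT proteins, mainly STAT5, and support the survival and growth of lymphocytes. In the liver they are best known from NK cells and type 1 innate lymphoid cells, which depend on IL-15, and from naive T cells and IL-17-producing T cells, which depend on IL-7.

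In the GENCODE M21 annotation of GRCm38, *Il2ra* (ENSMUSG00000026770) lies on chromosome 2 from 11642807 to 11693193 on the plus strand, and *Il15ra* (ENSMUSG00000023206) from 11705290 to 11734317 on the same strand, 12096 bases further on. *Il2rb* (ENSMUSG00000068227, 78479256 to 78495271) and *Il7r* (ENSMUSG00000003882, 9505788 to 9530176) are both on the minus strand of chromosome 15. *Il2rg* (ENSMUSG00000031304) lies on the minus strand of chromosome X from 101264378 to 101268255, and *Il21r* (ENSMUSG00000030745) on the plus strand of chromosome 7 from 125603429 to 125633570.

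*Il7r* and *Il2ra* separated the cell classes most clearly, and the sequences around their start sites are shown for that reason (RefSeq, GRCm38.p6, 250 bases before to 50 bases after the annotated start, printed 5′ to 3′ on the strand of the gene). The *Il7r* promoter is chr15:9529827-9530126 on the minus strand and the *Il2ra* promoter is chr2:11642542-11642841 on the plus strand. In GENCODE M21 the 5′ end of *Il7r* is at 9530176, so the printed *Il7r* stretch lies wholly inside the gene as annotated there. It is upstream only of the RefSeq start. Capitals mark the 2 motifs that were searched on both strands, TTCNNNGAA, the core of the elements that STAT proteins bind, and TGTGGT, the core of the RUNX motif.
Il7r: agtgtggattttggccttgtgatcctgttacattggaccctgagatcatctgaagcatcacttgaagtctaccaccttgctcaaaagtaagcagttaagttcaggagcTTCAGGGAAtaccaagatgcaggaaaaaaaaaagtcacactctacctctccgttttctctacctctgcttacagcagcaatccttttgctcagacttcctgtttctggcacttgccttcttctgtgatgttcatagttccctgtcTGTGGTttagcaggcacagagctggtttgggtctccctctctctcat
Il2ra: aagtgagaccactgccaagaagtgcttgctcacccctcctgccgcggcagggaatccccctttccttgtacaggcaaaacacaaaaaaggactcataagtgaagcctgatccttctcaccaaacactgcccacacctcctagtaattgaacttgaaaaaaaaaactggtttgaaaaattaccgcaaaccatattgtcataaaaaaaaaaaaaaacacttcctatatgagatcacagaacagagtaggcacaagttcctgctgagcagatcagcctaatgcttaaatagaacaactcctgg
The *Il7r* stretch held 1 match of TTCNNNGAA at position 109 and 1 of TGTGGT at position 254, counted from 1 at its 5′ end, and the *Il2ra* stretch held neither. TTCNNNGAA was present in 8.3% of the 32851 RefSeq promoters of this length and TGTGGT in 16.8%, so neither match is rare. RefSeq promoters were found for 5 of the 6 genes, and *Il2rb* is named only.

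The tdTomato+ library held 17957 barcodes and 203366009 UMIs, and the tdTomato- library 18444 barcodes and 156771260 UMIs. After filtering, 17509 and 18173 cells remained, with medians of 9083 and 7168 UMIs. Of these, 2971 tdTomato+ and 11314 tdTomato- cells fell into 15 lymphocyte classes that were named from fixed marker genes, with 32 to 618 tdTomato+ and 8 to 3982 tdTomato- cells per class. Against its CD45+ gate, the tdTomato+ library held 5646 endothelial-like cells, against 8 in the tdTomato- library, and a further 3641 tdTomato+ cells mixed T cell and endothelial genes, against 32 tdTomato- cells. Those mixed cells were kept out of every class, but other classes of the tdTomato+ library still carried endothelial marker genes, as given below. The libraries shared 84 barcodes.

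The classes bore the genes of their names, with some differences between the libraries. *Trdc*, the γδ T cell receptor constant gene, stood at 285 counts per 1000000 UMIs (CPM) in tdTomato+ γδ Ncr1-like cells, against 479.5 CPM in tdTomato- ones, and at 346 CPM, against 371 CPM, in γδ T17-like cells. In γδ Gzmk-like cells *Trdc* was only 112 CPM in the tdTomato+ library, against 401 CPM in the tdTomato- library, and *Cd8b1* was 246 CPM, against 34.3 CPM, so the label of these 51 tdTomato+ cells is less certain. The tdTomato- cells of this class also held 332 CPM of *Trac*, the constant gene of the α chain. That gene was at 289 CPM in tdTomato- effector CD8-like and 56.2 CPM in tdTomato- γδ Ncr1-like cells. The label of the tdTomato- γδ Gzmk-like cells is thus less certain as well. γδ proliferating-like cells had 63.2 CPM of *Trdc* in the tdTomato+ library, against 307 CPM in the tdTomato- library. Their *Trac* was 160 and 163.5 CPM, so the label of the 44 tdTomato+ cells is less certain too. In tdTomato+ γδ naive-like cells *Trdc* was 195 CPM and *Ccr7* 156 CPM, against 438 and 398 CPM in tdTomato- ones. *Cd8b1* was 211 CPM, against 98.3 CPM, so the label of these 32 tdTomato+ cells is less certain too. The γδ naive-like class was named from *Ccr7*, *Lef1*, *S1pr1* and *Tcf7*, the γδ T17-like class from *Il17a*, *Il23r*, *Blk* and *Ccr6*, and the γδ proliferating-like class from *Mki67* and its companions. A class with *Il4*, *Zbtb16* and *Cd40lg* (Il4/Zbtb16 T cells) and another of αβ T cells with *Il17a*, *Il23r* and *Trav1* (αβ Il17a/Il23r T cells) are called by their leading genes.

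*Il2rg*, the shared chain, was present at a similar level in every lymphocyte class. Across the 15 classes of the tdTomato+ library its level lay between 499 CPM in γδ proliferating-like cells and 841 CPM in ILC2-like cells, and across the 14 classes of the tdTomato- library with at least 20 cells between 478.5 CPM in γδ proliferating-like and 913 CPM in αβ Il17a/Il23r T cells. In γδ Ncr1-like cells it was 809 CPM in the tdTomato+ library, against 813 CPM in the tdTomato- library. Outside these classes it was lower, at 354 and 440 CPM in B-like cells, 148 and 194 CPM in macrophage-like cells, and 40.3 CPM in the endothelial-like cells of the tdTomato+ library. The chains that pair with *Il2rg* differed far more between the T cell and innate lymphoid classes.

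**Figure D1:**
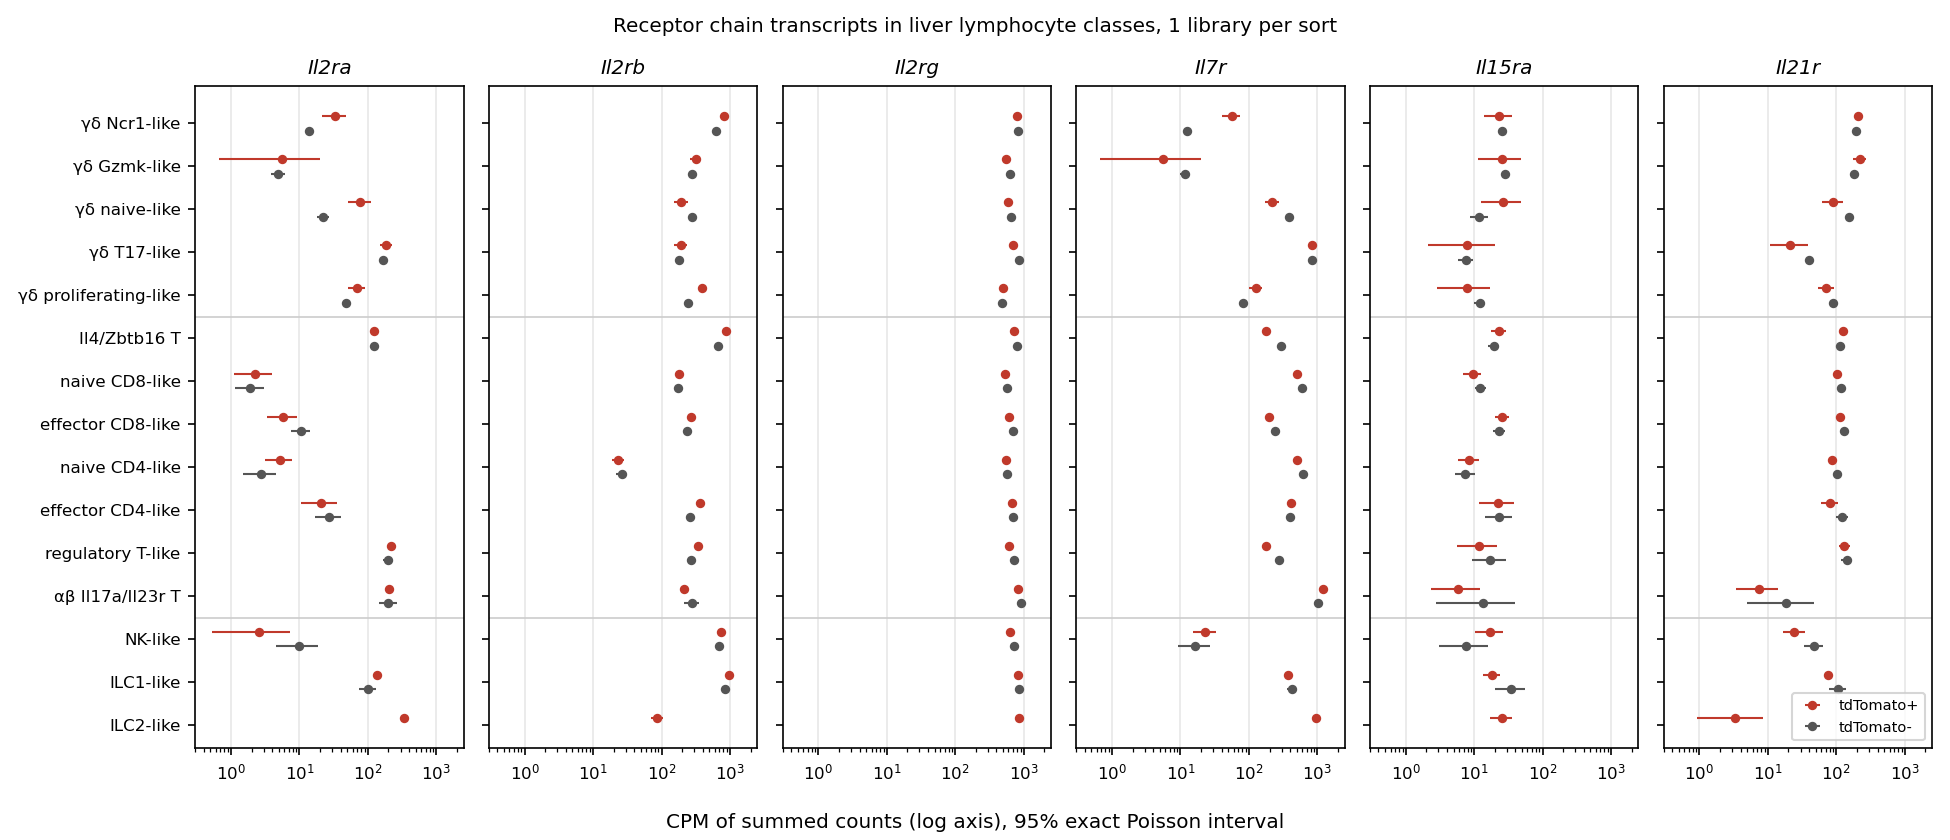
Level of each receptor chain (CPM of summed counts, log axis, with 95% exact Poisson interval) in 15 lymphocyte classes, tdTomato+ library in red above the tdTomato- library in grey. *Il2rg* varies little, while *Il2ra* and *Il7r* span more than 1 power of 10 between classes, for example 843 CPM of *Il7r* in tdTomato- γδ T17-like cells, against 12.4 CPM in tdTomato- γδ Ncr1-like cells.

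*Il2rb* was highest in cells with *Ncr1*. ILC1-like cells, which carry *Ncr1* without *Eomes*, had 965 CPM in the tdTomato+ library and 850.5 CPM in the tdTomato- library, and NK-like cells, which carry both, had 749 and 689 CPM. γδ Ncr1-like cells stood beside them with 810 CPM (95% interval 749.6 to 873.5, n = 100 cells) in the tdTomato+ library and 622 CPM (613 to 630.5, n = 3982 cells) in the tdTomato- library. The other class at this height was the Il4/Zbtb16 T cells, at 864 and 669 CPM.

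In the remaining T cells *Il2rb* was lower, with the highest levels in γδ proliferating-like cells of the tdTomato+ library (388 CPM, against 243 CPM in tdTomato- ones) and in effector CD4-like cells. Effector CD8-like cells had 272.5 CPM (tdTomato+) and 239 CPM (tdTomato-), effector CD4-like cells 361 and 257 CPM, and regulatory T-like cells 337 and 272 CPM. The naive classes differed from each other: naive CD8-like cells had 183 and 171 CPM, whereas naive CD4-like cells had 23.3 and 26.1 CPM, so that the CD8-like level was 7.84-fold (6.31 to 9.84) the CD4-like level in the tdTomato+ library and 6.57-fold (5.51 to 7.9) in the tdTomato- library. γδ naive-like cells had 195 and 276 CPM, 1.07-fold (0.831 to 1.36) the naive CD8-like level in the tdTomato+ library and 1.61-fold (1.49 to 1.74) in the tdTomato- library. Within both naive αβ classes *Il2rb* was uneven: 1 sub-cluster with 18.1% of tdTomato+ and 18.3% of tdTomato- naive CD4-like cells had 91.7 and 94.7 CPM while the others had 3.5 to 15.7 CPM, and the naive CD8-like sub-clusters ranged over 92.4 to 338 CPM in the tdTomato+ library and 88.4 to 254 CPM in the tdTomato- library. ILC2-like cells of the tdTomato+ library had 86.6 CPM, 0.0898 of the level in ILC1-like cells (0.073 to 0.109).

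The share of cells with an *Il2rb* UMI was highest in the same classes, but did not follow the levels closely below them. It was 78.85% in tdTomato+ γδ T17-like cells, at 190.5 CPM and a median of 9284 UMIs, and 68.1% in tdTomato+ regulatory T-like cells, at 337 CPM and 6478 UMIs. The share was 95% in tdTomato+ and 94.7% in tdTomato- γδ Ncr1-like cells, at medians of 7970 and 7420 UMIs, against 1.59% in endothelial-like cells of the tdTomato+ library at 7460 UMIs and 17.6% in B-like cells of the tdTomato- library at 6061 UMIs. With every cell thinned to 1000 UMIs the shares were 54.0% and 44.0% in γδ Ncr1-like cells and 18.75% and 21.3% in γδ naive-like cells, against 0.338% in tdTomato+ endothelial-like and 4.41% in tdTomato- B-like cells. B-like cells held 6.93 CPM of *Il2rb* in the tdTomato+ library and 60.7 CPM in the tdTomato- library. Their *Cd3e* was 31.0 and 231 CPM, and whether their *Il2rb* is background was not tested.

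*Il7r* ran in another direction. It was highest in the IL-17-type classes, naive T cells and ILC2-like cells, and lowest in NK-like, γδ Ncr1-like and γδ Gzmk-like cells. αβ Il17a/Il23r T cells had 1210 CPM in the tdTomato+ library and 1022 CPM in the tdTomato- library, and γδ T17-like cells 836 CPM (759 to 919) and 843 CPM (824 to 863). ILC2-like cells had 966.5 CPM in the tdTomato+ library. They were named from a marker list for ILC2 and ILC3 cells that includes *Gata3*, *Il1rl1* and *Areg*, and they also held 114 CPM of *Il17a*. Endothelial marker genes summed to 598 CPM in them, 384 CPM of it *Stab2*. In tdTomato+ αβ Il17a/Il23r T cells the sum was 391.5 CPM, with 281.5 CPM of *Stab2*. In the 24 tdTomato- cells of that class it was 141 CPM, with 68.1 CPM of *Stab2*. *Stab2* was a smaller part of the sum in tdTomato+ endothelial-like cells, at 4096 of 32200 CPM. The source of the *Stab2* RNA in the lymphocyte classes was not tested.

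Naive T cells formed the next tier. *Il7r* was 508 and 595 CPM in naive CD8-like cells and 496 and 610 CPM in naive CD4-like cells, and these classes did not differ beyond counting error from each other in either library (CD8-like over CD4-like 1.02, 0.965 to 1.09, in tdTomato+ and 0.975, 0.933 to 1.02, in tdTomato-). Effector CD8-like cells had 194 and 243 CPM, which was 0.382 (0.349 to 0.419) of the naive CD8-like level in the tdTomato+ library and 0.409 (0.382 to 0.437) in the tdTomato- library. Most of it came from 1 sub-cluster with 27.1% of tdTomato+ and 29.9% of tdTomato- cells, at 475 and 494 CPM, while the other 3 held 0 to 111 CPM in the tdTomato+ library and 75.5 to 146 CPM in the tdTomato- library. Regulatory T-like cells, in which low CD127 is a known feature, had 180 and 272 CPM, 0.432 (0.351 to 0.531) and 0.684 (0.575 to 0.813) of the effector CD4-like level.

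At the low end *Il7r* was hardly present. NK-like cells had 22.8 CPM in the tdTomato+ library and 16.4 CPM in the tdTomato- library, and γδ Gzmk-like cells 5.6 CPM (from 2 UMIs) and 11.5 CPM. ILC1-like cells, close to NK cells in other respects, had 378 and 421 CPM, 16.6-fold (11.4 to 25.3) and 25.7-fold (15.2 to 46.8) the NK-like level. After thinning to 1000 UMIs an *Il7r* UMI was found in 61.5% of tdTomato+ and 53.3% of tdTomato- γδ T17-like cells and in 0.994% of tdTomato- γδ Gzmk-like cells, against 0.231% of tdTomato+ endothelial-like cells and 1.0% of tdTomato- B-like cells. Unthinned, these shares were 98.1% and 94.15% in γδ T17-like cells at medians of 9284 and 8126 UMIs, 3.89% in γδ Gzmk-like cells at 6757 UMIs, 0.779% in endothelial-like cells at 7460 UMIs and 7.33% in B-like cells at 6061 UMIs. The *Il7r* share of tdTomato- γδ Gzmk-like cells was thus no higher than that of B-like cells. Those B-like cells held 231 CPM of *Cd3e* themselves, so they cannot settle whether the share is background.

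**Figure D2:**
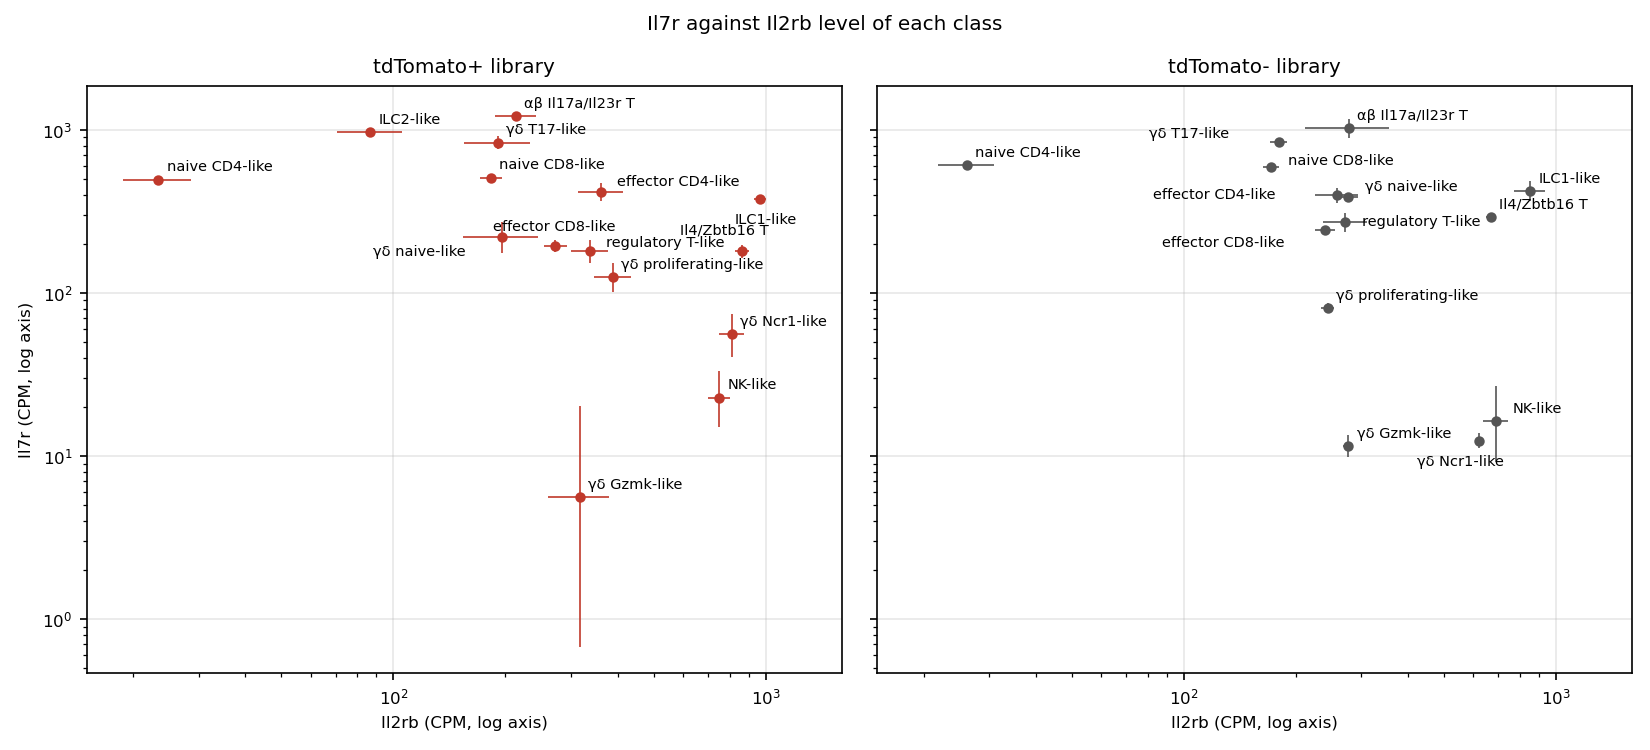
*Il7r* against *Il2rb* level of each class (CPM, both axes log, bars are 95% exact Poisson intervals), tdTomato+ library on the left and tdTomato- library on the right. NK-like and γδ Ncr1-like cells lie at high *Il2rb* and low *Il7r*, the IL-17-type and naive classes at high *Il7r*, and ILC1-like cells high on both axes with 965 and 851 CPM of *Il2rb* beside 378 and 421 CPM of *Il7r*.

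*Il2ra*, the CD25 gene, was concentrated in few classes. ILC2-like cells of the tdTomato+ library had 335 CPM. Regulatory T-like cells, for which CD25 is a defining marker, had 219 CPM in the tdTomato+ library and 198 CPM in the tdTomato- library, which was 10.7-fold (5.96 to 21.0) and 7.38-fold (4.75 to 12) the effector CD4-like level. αβ Il17a/Il23r T cells reached the same height with 202 and 200 CPM, and γδ T17-like cells came close with 185 CPM (149 to 226) and 164 CPM (155 to 173).

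Il4/Zbtb16 T cells and ILC1-like cells carried intermediate amounts of *Il2ra*. The Il4/Zbtb16 T cells had 124.5 and 121 CPM, and the ILC1-like cells 136 and 101 CPM, 53.6-fold (18.2 to 261) the NK-like level in the tdTomato+ library, where NK-like cells held 3 UMIs, and 10.2-fold (4.98 to 23.7) in the tdTomato- library. In naive CD8-like, naive CD4-like and γδ Gzmk-like cells *Il2ra* stayed at 5.6 CPM or less in either library. Thinned to 1000 UMIs, an *Il2ra* UMI was seen in 13.5% and 15.4% of γδ T17-like cells and in 19.8% and 22.3% of regulatory T-like cells, against 0.0712% of tdTomato+ endothelial-like and 0.601% of tdTomato- B-like cells.

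Cells in which all 3 chains of the high-affinity IL-2 receptor were detected together (*Il2ra*, *Il2rb* and *Il2rg*) made up 68.3% of αβ Il17a/Il23r T cells in the tdTomato+ library and 54.2% in the tdTomato- library, 65.4% and 45.5% of γδ T17-like cells, 51.7% and 46.4% of Il4/Zbtb16 T cells, 47.5% and 39.7% of ILC1-like cells and 46.0% and 42.6% of regulatory T-like cells. In NK-like cells the share was 2.14% and 4.46%, in tdTomato+ endothelial-like cells 0.0531% and in tdTomato- B-like cells 3.17%. The β and γ chains without regard to *Il2ra*, the pair that binds IL-15 and IL-2 with intermediate affinity, were detected together in 95% and 93.5% of γδ Ncr1-like cells, 86.4% and 95.5% of NK-like cells and 95.7% and 91.4% of ILC1-like cells. These shares depend on depth: the tdTomato+ αβ Il17a/Il23r T cells had a median of 11180 UMIs and their tdTomato- counterparts 7893.

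*Il15ra* stayed between 5.83 and 34.9 CPM in the compared classes. Among the γδ subsets it was 25.2 CPM in tdTomato+ and 28.3 CPM in tdTomato- γδ Gzmk-like cells, 23.0 and 25.3 CPM in γδ Ncr1-like cells, and 7.78 and 7.61 CPM in γδ T17-like cells. Effector CD8-like cells had 25.5 and 23.1 CPM, against 9.51 and 12.3 CPM in naive CD8-like cells, a ratio of 2.68 (1.84 to 3.95) in the tdTomato+ library and 1.88 (1.42 to 2.49) in the tdTomato- library. Endothelial-like cells of the tdTomato+ library had 24.1 CPM, within the range of the lymphocytes, whereas each of the other 5 chains was lower there than in most lymphocyte classes.

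*Il21r*, the chain for IL-21, was high in most T cell classes and low in NK-like, IL-17-type and ILC2-like cells. γδ Ncr1-like cells had 209 CPM in the tdTomato+ library and 193 CPM in the tdTomato- library, and γδ Gzmk-like cells 218 and 181 CPM. Naive and effector αβ T cells and regulatory T-like cells lay between 80.35 and 142 CPM in both libraries. NK-like cells had 24.5 and 47.0 CPM. In γδ T17-like cells the level was 21.4 and 39.95 CPM, in αβ Il17a/Il23r T cells 7.5 and 18.2 CPM, and in tdTomato+ ILC2-like cells 3.37 CPM from 4 UMIs. B-like cells, in which IL-21 supports differentiation, had 63.9 and 73.9 CPM.

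The order of the γδ subsets was read in the tdTomato- library, which held 451 to 3982 cells of each. For *Il2ra* it ran from γδ T17-like (164 CPM) through γδ proliferating-like (47.9), γδ naive-like (22.2) and γδ Ncr1-like (13.6) to γδ Gzmk-like cells (4.92), and each neighbour differed from the next beyond counting error. For *Il2rb* it ran from γδ Ncr1-like (622 CPM) to γδ Gzmk-like (277), γδ naive-like (276), γδ proliferating-like (243) and γδ T17-like cells (180), and only the γδ Gzmk-like and γδ naive-like cells did not differ (ratio 1.00, 0.936 to 1.07). For *Il7r* it ran from γδ T17-like (843 CPM) through γδ naive-like (389) and γδ proliferating-like (80.6) to γδ Ncr1-like (12.4) and γδ Gzmk-like cells (11.5), the last pair not differing (1.08, 0.896 to 1.3). *Il21r* was close to the reverse, from γδ Ncr1-like (193 CPM) through γδ Gzmk-like (181), γδ naive-like (155) and γδ proliferating-like (90.9) to γδ T17-like cells (39.95), with every step beyond counting error. In the tdTomato- library the γδ subsets spanned 478.5 to 863 CPM of *Il2rg* and 7.61 to 28.3 CPM of *Il15ra*, with γδ T17-like cells lowest in *Il15ra*.

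In the tdTomato+ library, with 32 to 100 cells per γδ subset, the γδ T17-like cells were again highest in *Il7r* and *Il2ra* and the γδ Ncr1-like cells in *Il2rb*, while *Il2rg* was highest in γδ Ncr1-like cells (809 CPM) and γδ T17-like cells came next (704 CPM). Fewer neighbours differed beyond counting error there: for *Il2rb* γδ naive-like and γδ T17-like cells gave a ratio of 1.03 (0.748 to 1.4), and for *Il15ra* no neighbouring pair differed. γδ T17-like over γδ Ncr1-like cells gave ratios for *Il7r* of 15 (11.1 to 20.8) in the tdTomato+ library and 67.8 (61.1 to 75.3) in the tdTomato- library, and for *Il2rb* of 0.235 (0.188 to 0.291) and 0.289 (0.274 to 0.305). In both libraries γδ T17-like cells had the most *Il7r* and γδ Ncr1-like cells the most *Il2rb* of the γδ subsets. The lowest *Il7r* was in γδ Gzmk-like cells, below γδ Ncr1-like cells beyond counting error in the tdTomato+ library (9.94-fold, 2.6 to 84.6). An *Il7r* UMI was found in 3.42% of tdTomato- γδ Ncr1-like cells, under the 7.33% of B-like cells. The sub-clusters of that class with at least 50 cells ran from 0.658 to 202 CPM of *Il7r*. The denominator of the 67.8-fold ratio is thus an average over unlike cells.

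Beside their αβ or innate counterparts, the γδ subsets matched for some chains only. γδ Ncr1-like over NK-like cells gave ratios near 1 for *Il2rb*, at 1.08 (0.976 to 1.2) in the tdTomato+ library and 0.902 (0.833 to 0.978) in the tdTomato- library, but *Il21r* was 8.56-fold (5.75 to 13.2) and 4.12-fold (3.05 to 5.7) higher in the γδ cells. *Cd3e*, which NK cells lack, was 11.8 CPM in tdTomato+ and 157 CPM in tdTomato- NK-like cells, and its part in these ratios was not tested. Over ILC1-like cells, γδ Ncr1-like cells had 0.147 (0.107 to 0.198) and 0.0295 (0.0249 to 0.0352) of the *Il7r* level. γδ Gzmk-like over effector CD8-like cells gave 1.16 (0.945 to 1.42) and 1.16 (1.08 to 1.24) for *Il2rb*, but 0.0288 (0.00348 to 0.105) and 0.0474 (0.04 to 0.056) for *Il7r*. Both classes carry *Gzmk*. The γδ *Il7r* values rest on 2 tdTomato+ UMIs and on a tdTomato- share no higher than that of B-like cells. The effector CD8-like values rest mainly on the sub-cluster named above, so these ratios of *Il7r* give a direction rather than a size.

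As a class, γδ naive-like cells had less *Il7r* and more *Il2ra* than naive CD8-like cells. In the tdTomato+ library both values turned largely on 1 sub-cluster. Their *Il7r* was 0.431 (0.342 to 0.537) of the naive CD8-like level in the tdTomato+ library and 0.654 (0.617 to 0.692) in the tdTomato- library, and their *Il2ra*, at 76.6 and 22.2 CPM, was 34.4-fold (16.7 to 76.4) and 11.7-fold (6.97 to 20.6) higher than the 2.23 and 1.91 CPM of naive CD8-like cells. A sub-cluster with *Xcl1*, 14 of the 32 tdTomato+ and 49 of the 486 tdTomato- cells, held 116 and 115 CPM of *Il2ra* and 0 and 55.7 CPM of *Il7r*. The other 3 sub-clusters had 0 to 24.4 CPM of *Il2ra* and 415 to 708 CPM of *Il7r* in the tdTomato+ library, where each held 6 cells, beside 508 CPM of *Il7r* in naive CD8-like cells. In the tdTomato- library these 3 had 346 to 511 CPM of *Il7r* and 3.04 to 10.7 CPM of *Il2ra*. Naive CD8-like cells there had 595 and 1.91 CPM, so both differences kept their direction without the sub-cluster with *Xcl1*. At resolution 1.5 the tdTomato+ γδ naive-like level of *Il7r* was 530 CPM, above the 508 CPM of tdTomato+ naive CD8-like cells at resolution 1. αβ Il17a/Il23r T cells over γδ T17-like cells gave 1.45 (1.3 to 1.62) and 1.21 (1.06 to 1.38) for *Il7r* and did not differ beyond counting error in *Il2ra* (1.1, 0.861 to 1.4, and 1.22, 0.882 to 1.65). The αβ class held 101 tdTomato+ but only 24 tdTomato- cells, and its tdTomato- cells also carried 150 CPM of *Trdc*, against 2.5 CPM in tdTomato+ cells.

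The γδ classes were not uniform. In the tdTomato- library the 5 sub-clusters of γδ T17-like cells spanned 395 to 1767 CPM of *Il7r* with a median of 905 CPM, while their *Il2rb* stayed between 159 and 200 CPM. Among the 7 sub-clusters of γδ Ncr1-like cells with at least 50 tdTomato- cells, *Il2rb* lay between 483 and 680.5 CPM, *Il7r* between 0.658 and 202 CPM and *Il2ra* between 3.29 and 167 CPM. *Il2rb* was thus common to the whole γδ Ncr1-like class, and *Il7r* and *Il2ra* were uneven within it. The sub-cluster with the highest *Il7r* level held 87 of 3982 cells, and a larger one of 549 cells had 28.7 CPM of *Il7r* and 23.7 CPM of *Il2ra*. The sub-cluster of γδ naive-like cells with *Xcl1* had 115 CPM of *Il2ra* and 55.7 CPM of *Il7r* from 49 cells, while the other 3 had 3.04 to 10.7 CPM of *Il2ra* and 346 to 511 CPM of *Il7r*.

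The receptor libraries tied these levels to γ and δ chain V genes. In the tdTomato- library 2519 cells carried at least 1 contig, and the 85 cells with TRGV6, the V gene typical of fetal IL-17-producing γδ T cells, had 600 CPM (554 to 649) of *Il7r* and 115 CPM (95.7 to 138) of *Il2ra*. Cells with TRGV1, TRGV4, TRGV5 or TRGV7 had 41.4 to 104.5 CPM of *Il7r* and 10.5 to 29.0 CPM of *Il2ra*, and TRGV2 cells lay between, at 176 and 40.3 CPM. *Il2rb* was lowest in TRGV6 cells, at 284 CPM, and highest in TRGV5 cells, at 534 CPM. The other V genes did not run opposite to *Il7r*, since TRGV2 cells had the second highest level of either gene (483 CPM of *Il2rb*). The V genes are not independent of the classes, since 40.0% of TRGV6 cells were γδ T17-like and 76.9% of TRGV5 cells γδ Ncr1-like.

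For the δ chain, TRDV4 cells (100 cells) had 504 CPM of *Il7r* and TRDV5 cells (265 cells) 350 CPM, against 131 CPM in TRDV2-2 cells (383 cells). The tdTomato+ library held 150 contigs in 132 barcodes, and 35.5% to 53.6% of its cells with TRGV1, TRGV2 or TRGV4 lay in the cluster that mixed T cell and endothelial genes. Their values, such as 159 CPM of *Il7r* in 28 tdTomato+ TRGV1 cells beside 86.9 CPM in 660 tdTomato- TRGV1 cells, therefore come from different mixes of cells, and the part of that in the difference was not tested.

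**Figure D3:**
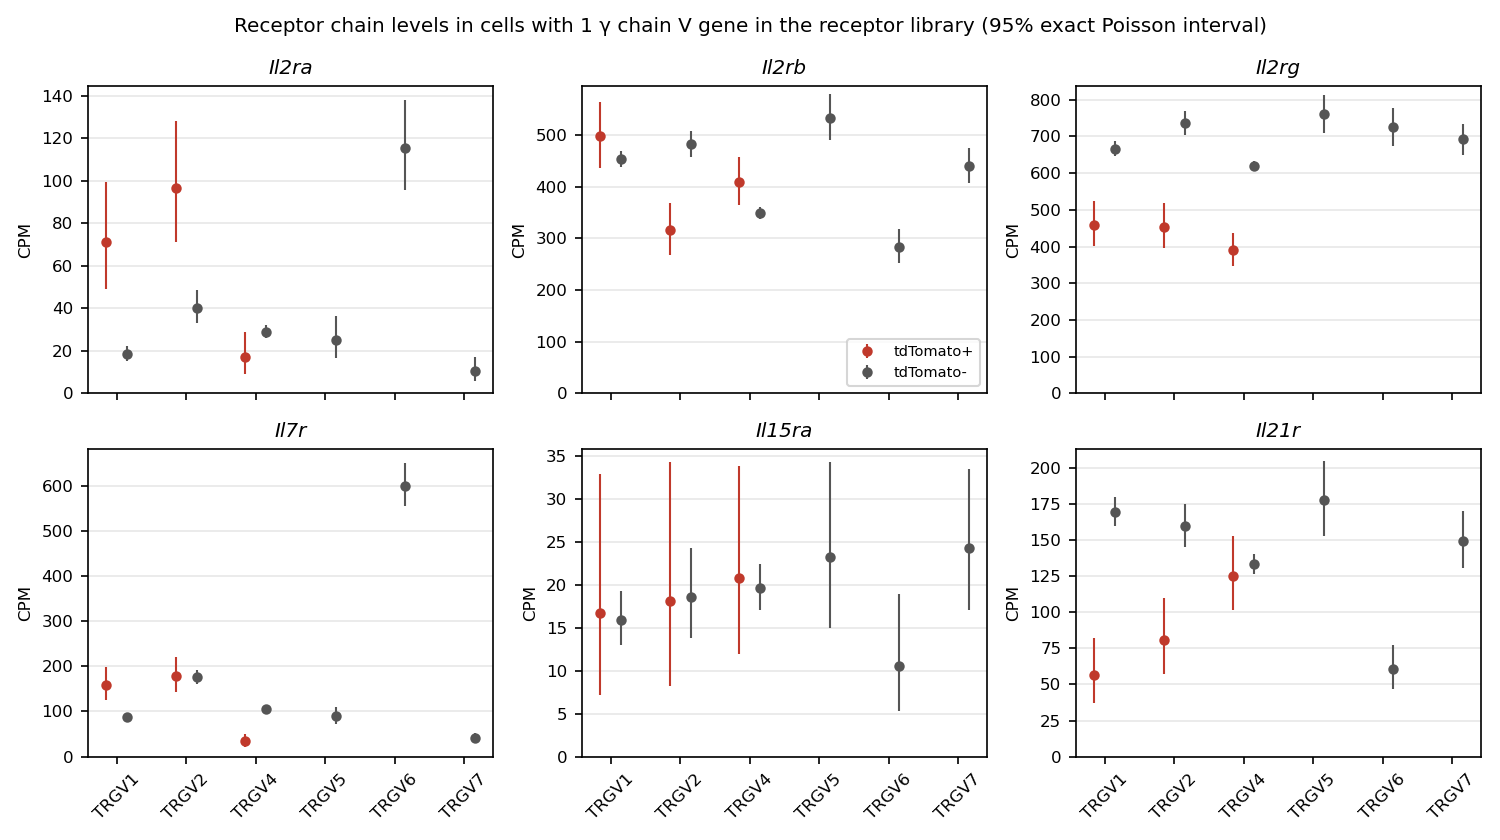
Level of each receptor chain (CPM, 95% exact Poisson interval) in cells grouped by the γ chain V gene of their contig, tdTomato+ library in red and tdTomato- library in grey, groups of at least 20 cells. In the tdTomato- library TRGV6 cells stand apart with 600 CPM of *Il7r*; the tdTomato+ groups are small (28, 31 and 46 cells) and 35.5% to 53.6% of their cells mix T cell and endothelial genes.

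Between the libraries, most classes had the same receptor levels within a factor of 2. A gene was called when it had at least 10 CPM in either library, a ratio of at least 2 in either direction and an interval that left out 1. Of 84 comparisons (6 genes in 14 classes) 78 reached that level, and 3 were called, 3.85%, beside 4.62% of all gene comparisons in these classes (5495 of 118869). The members were thus called no more often than genes at large. The 3 calls were *Il7r* and *Il2ra* in γδ Ncr1-like cells, where 3.4% of genes were called, and *Il2ra* in γδ naive-like cells, where 15.6% were called, and all 3 were higher in the tdTomato+ library. In the classes without a member called, the share of all genes called was 0.407% in naive CD8-like, 0.734% in naive CD4-like, 1.16% in effector CD8-like, 1.49% in Il4/Zbtb16 T, 3.57% in NK-like, 4.46% in effector CD4-like, 4.81% in regulatory T-like and 4.93% in ILC1-like cells. It was 5.43% in γδ Gzmk-like, 5.44% in αβ Il17a/Il23r T, 6.13% in γδ proliferating-like and 6.21% in γδ T17-like cells.

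*Il7r* in γδ Ncr1-like cells was 55.7 CPM in the tdTomato+ library, against 12.4 CPM in the tdTomato- library, a ratio of 4.48 (3.22 to 6.09). It rested on 46 UMIs in 11 of 100 tdTomato+ cells, of which 4 also had a *Trdc* UMI and 9 a *Cd3e* UMI. A single sub-cluster, with 311 CPM of *Il7r* in its tdTomato+ cells, against 202 CPM in its tdTomato- cells, held 11% of the tdTomato+ but 2.18% of the tdTomato- cells of the class. With only those γδ cells that had a *Trdc* UMI, an alternative chosen after seeing the data, the ratio was 1.27, and it was 0.825 and 0.701 at clustering resolutions of 0.7 and 1.5, 0.601 with another seed and 0.652 with per-cell marker gates. It missed the call at 1.4 with the stricter cell filter and at 2.4 in cells with a contig. The call therefore depended on how the class was drawn.

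*Il2ra* in γδ Ncr1-like cells was 32.7 CPM, against 13.6 CPM, a ratio of 2.4 (1.56 to 3.54) from 27 and 417 UMIs. It stayed above 1 in every alternative but the thinning to 1000 UMIs, where no tdTomato+ UMI remained, and between 1.66 and 5.46 elsewhere. It missed the call with the stricter cell filter (1.79), at resolutions 0.7 (1.94) and 1.5 (1.78) and with another seed (1.66). *Il2ra* in γδ naive-like cells was 76.6 CPM, against 22.2 CPM, a ratio of 3.44 (2.18 to 5.3) from 29 UMIs in 8 of 32 tdTomato+ cells and 86 UMIs in 32 of 486 tdTomato- cells. The sub-cluster with *Xcl1* held 43.8% of the tdTomato+ and 10.1% of the tdTomato- cells, and within it the tdTomato+ cells had 116 CPM of *Il2ra*, against 115 CPM in the tdTomato- cells. The ratio was 0.45 with the stricter cell filter and 0.476 at resolution 1.5.

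Smaller differences went in both directions for *Il2rb* and *Il7r*. Where *Il2rg* and *Il21r* differed beyond counting error, they were always lower in tdTomato+ cells. For *Il2rg* these ratios were 0.815 in γδ T17-like, 0.845 in regulatory T-like, 0.86 in γδ Gzmk-like and 0.86 in effector CD8-like cells. They were 0.876 in NK-like, 0.923 in naive CD8-like and 0.93 in Il4/Zbtb16 T cells. For *Il21r* they ran from 0.521 in NK-like to 0.86 in naive CD8-like cells. *Il2rb* was higher in tdTomato+ cells by ratios of 1.3 (1.2 to 1.41) in γδ Ncr1-like, 1.29 (1.23 to 1.36) in Il4/Zbtb16 T, 1.6 (1.41 to 1.8) in γδ proliferating-like and 1.4 (1.16 to 1.7) in effector CD4-like cells, and lower in γδ naive-like cells at 0.708 (0.551 to 0.896). *Il7r* was lower in tdTomato+ cells in Il4/Zbtb16 T (0.614, 0.554 to 0.679), regulatory T-like (0.663, 0.536 to 0.819) and γδ naive-like cells (0.564, 0.447 to 0.704). The Il4/Zbtb16 T class differed in make-up, with 24.0 CPM of *Trdc* in tdTomato+ and 125 CPM in tdTomato- cells. In each of its sub-clusters *Il7r* was still lower in the tdTomato+ cells. In γδ T17-like cells, the class with the most *Il7r* among γδ T cells, the libraries did not differ beyond counting error for *Il7r* (0.991, 0.897 to 1.09), *Il2ra* (1.13, 0.906 to 1.39) or *Il2rb* (1.06, 0.855 to 1.3). The γδ naive-like ratio of *Il7r* goes with the sub-cluster with *Xcl1*, and in 2 of the other 3 sub-clusters *Il7r* was higher in tdTomato+ cells (708 CPM, against 486 CPM, and 642 CPM, against 346 CPM). It was 1.04 with the stricter cell filter and 1.21 at resolution 1.5, and the effector CD4-like ratio of *Il2rb* was 0.892 with per-cell marker gates. None of these ratios reached the call, and with 1 library per sort a difference between sorts cannot be separated from one between libraries.

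**Figure D4:**
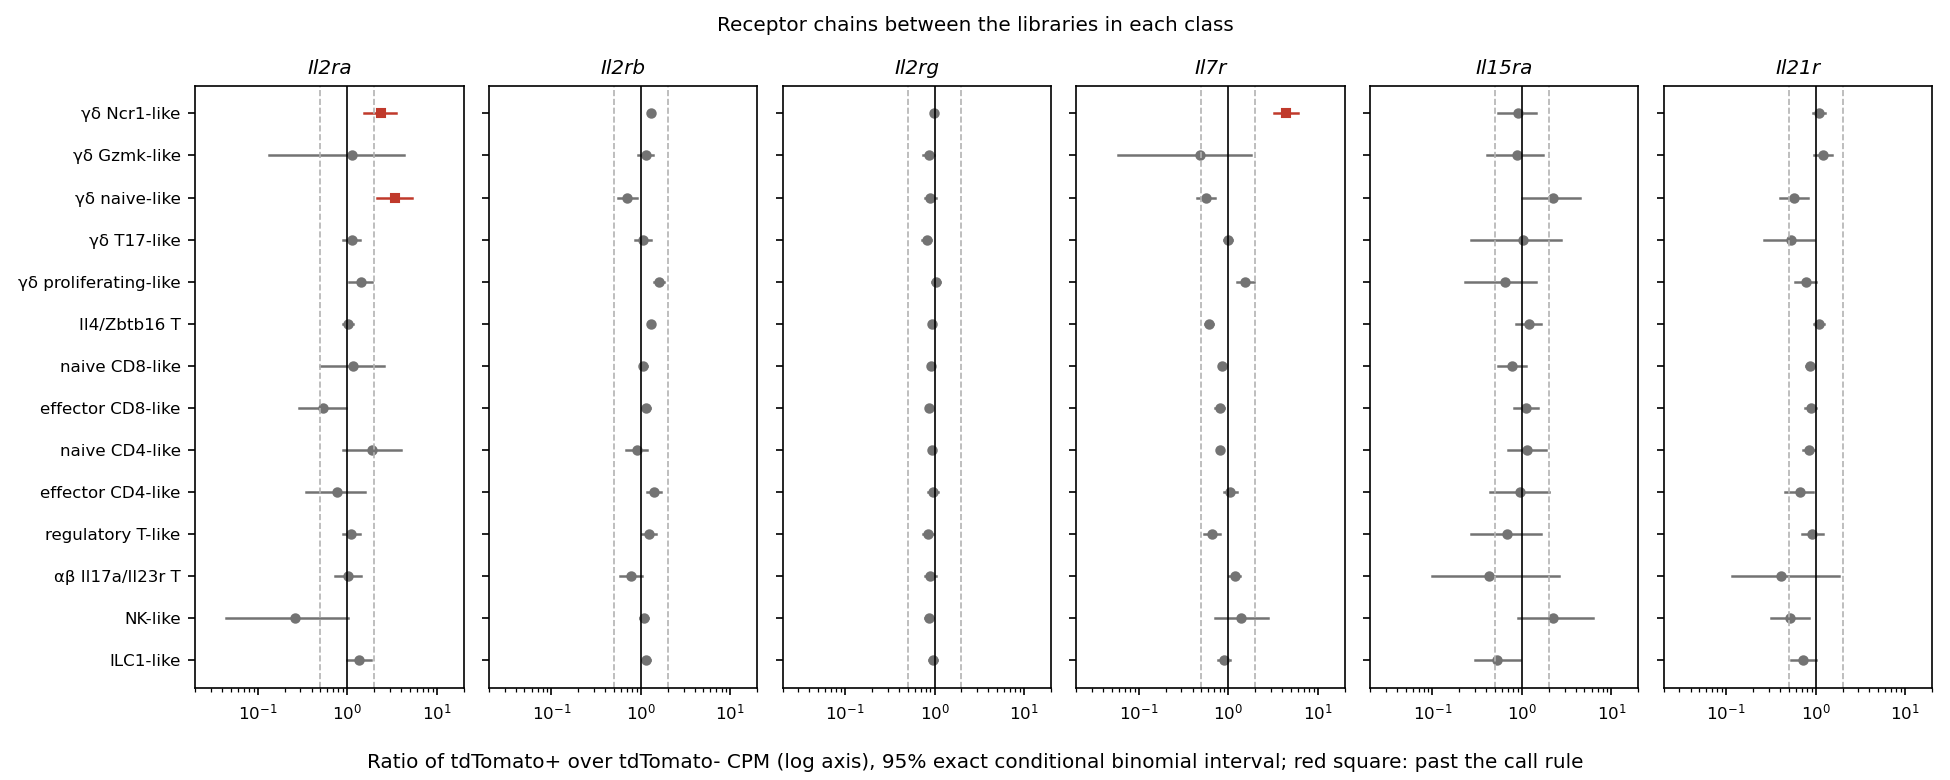
Ratio of tdTomato+ over tdTomato- CPM for each receptor chain in 14 classes (log axis, 95% exact conditional binomial interval), with a solid line at 1 and dashed lines at ratios of 2 in either direction. The 3 red squares are the ratios past the call rule, 4.48 and 2.4 in γδ Ncr1-like and 3.44 in γδ naive-like cells; most other points lie within the dashed lines.

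Other values moved with these ratios. Endothelial marker genes summed to 93.2 CPM in tdTomato+ and 14.96 CPM in tdTomato- γδ Ncr1-like cells, with 10 of 10 markers detected in either library, and to 103 and 111 CPM in γδ naive-like cells, with 8 of 10 detected. *Trdc* was 285 and 479.5 CPM in γδ Ncr1-like and 195 and 438 CPM in γδ naive-like cells, and *Cd8b1* was 211 and 98.3 CPM in γδ naive-like cells. Endothelial-like cells held 1.58 CPM of *Il7r* and 0.51 CPM of *Il2ra*, and leaving out cells with more than 3 endothelial counts gave ratios of 4.62 and 2.44 in γδ Ncr1-like and 3.8 in γδ naive-like cells. The part of the lower *Trdc* in these ratios was not tested beyond the values above.

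The other genes of the pathway, 27 in all, were read in the same way. Of 378 comparisons 278 reached 10 CPM and 11 were called, 3.96%, beside 4.62% of all genes, with 6 higher and 5 lower in the tdTomato+ library. *Myc*, a growth target, was 422.5 CPM in tdTomato+ and 158 CPM in tdTomato- γδ naive-like cells, and *Socs3*, a feedback inhibitor of cytokine signalling, 50.2 and 149.5 CPM there. *Socs2*, another such inhibitor, was 39.2 and 12.9 CPM in γδ Gzmk-like cells, and *Il9r*, which pairs with the common γ chain in the IL-9 receptor, was 11.7 and 1.19 CPM in γδ T17-like and 19.35 and 2.28 CPM in γδ proliferating-like cells.

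The remaining 6 calls were in αβ T and NK-like cells. *Il2* was higher in tdTomato+ effector CD8-like cells at 16.5 CPM, against 8.1 CPM, and *Il15* in tdTomato+ NK-like cells at 16.0 CPM, against 4.37 CPM from 4 UMIs. *Il21* and *Il4* were lower in tdTomato+ effector CD4-like cells, at 10.3 and 3.42 CPM, against 50.1 and 41.9 CPM, *Il21* was lower in regulatory T-like cells, and *Myc* was lower in αβ Il17a/Il23r T cells.

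Downstream genes separated the classes more than the libraries. *Bcl2*, the survival gene, was 426 CPM in tdTomato+ and 505 CPM in tdTomato- γδ Ncr1-like cells but 44.7 and 30.2 CPM in γδ T17-like cells, the class with the most *Il7r* among γδ T cells. *Bcl2l11*, which encodes the pro-apoptotic BIM, had the same pattern, at 120 and 196 CPM, against 15.55 and 12.5 CPM in γδ T17-like cells. *Pim1*, a kinase gene induced by STAT5, was higher in γδ T17-like cells, at 661 and 823 CPM, than in γδ Ncr1-like cells, at 357 and 335 CPM. *Cish*, a feedback inhibitor of STAT5 signalling, was 191 and 208 CPM in γδ Ncr1-like cells, 360 CPM in tdTomato+ ILC2-like cells, and 10.7 and 7.41 CPM in naive CD8-like cells.

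Among ligands, *Il15* was found mainly outside the lymphocytes. Basophil- and mast-like cells of the tdTomato+ library had 164 CPM (123 to 215) from 39 cells. Macrophage-like cells had 140 CPM in the tdTomato+ library and 138 CPM in the tdTomato- library, conventional dendritic-like cells 53.1 and 47.3 CPM, monocyte-like cells 50.9 and 32.1 CPM, and endothelial-like cells of the tdTomato+ library 47.0 CPM. Endothelial marker genes summed to 3520 CPM in tdTomato+ macrophage-like, 5851 CPM in conventional dendritic-like and 6544 CPM in monocyte-like cells. In their tdTomato- counterparts the sums were 617, 172 and 327 CPM. The tdTomato+ basophil- and mast-like cells held 2116 CPM of these markers. The part of endothelial RNA in these *Il15* levels was not tested. *Il7* was at most 3.65 CPM in any class of either library, so it was hardly detectable at this depth. *Il2* reached 34.2 and 34.9 CPM in effector CD4-like cells, and *Il4* 219.5 and 222 CPM in Il4/Zbtb16 T cells.

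**Figure D5:**
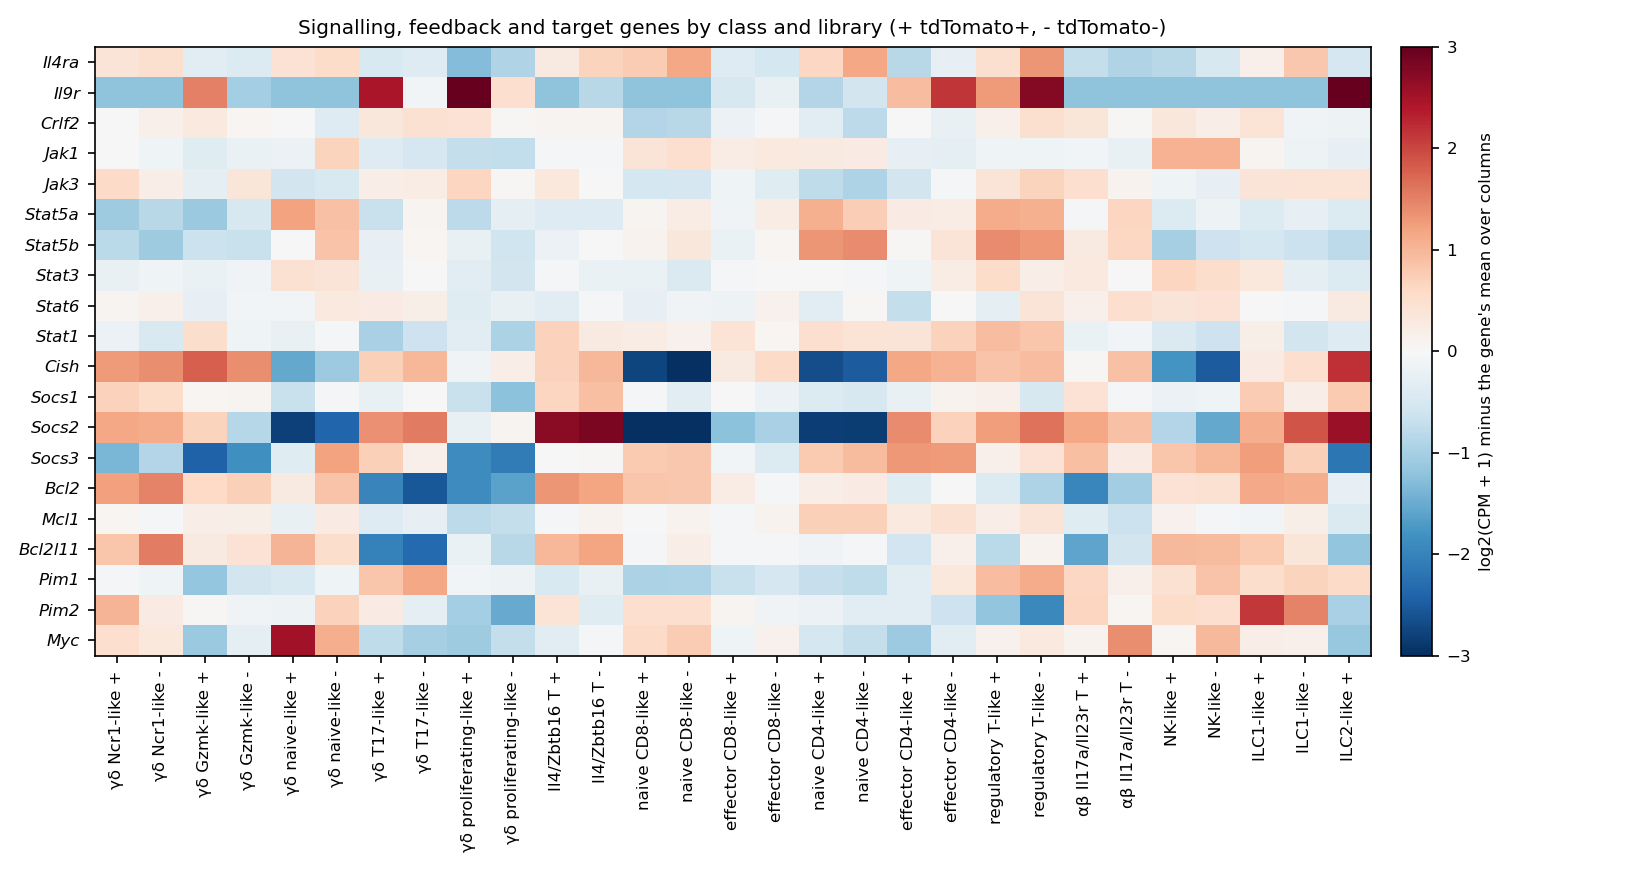
Signalling, feedback and target genes (rows) in each class and library (columns, + for tdTomato+ and - for tdTomato-), coloured by log2(CPM + 1) minus the gene's mean over the columns, blue below and red above that mean. *Bcl2* and *Bcl2l11* are low in γδ T17-like columns and *Cish* and *Socs2* in naive columns, and neighbouring columns of 1 class look alike.

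The genes with the most similar levels were listed over 38 groups (class and library, at least 50 cells each) among 8335 genes, as Pearson correlations of log2(CPM + 1). *Il7r* was followed most closely by *Emb* (0.887), itself a marker used to name T17 cells, *Clint1* (0.868) and *Rgcc* (0.864). *Il2ra* was followed by *Gm36347* (0.869), *Bmp7* (0.852) and *Pdcd1* (0.833), *Il2rb* by *Sytl3* (0.9), *Dok2* (0.9) and *Cst7* (0.899), and *Il21r* by *Rbm38* (0.888), *Gpr18* (0.866) and *Gpr174* (0.857). For *Il2rg* the closest were *Ablim1* (0.938), *Ltb* (0.93) and *Stk26* (0.923), and for *Il15ra* only looser matches were found, *Etv3* (0.753), *Nlrc5* (0.732) and *Rab8b* (0.714). The groups share libraries and include non-lymphoid cells, so these values are descriptions. Among the members themselves *Il2rb* and *Il2rg* had the highest correlation (0.786), and *Il7r* and *Il15ra* the lowest (-0.236).

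Some receptor transcripts were also found outside the lymphoid classes. *Il7r* was 212 and 265 CPM in plasmacytoid dendritic-like cells, with a UMI in 82.1% and 79.9% of them, and *Il21r* was 87.4 and 121.5 CPM there. Basophil- and mast-like cells of the tdTomato+ library (39 cells) had 205 CPM of *Il7r*. Endothelial marker genes summed to 2116 CPM in these cells. In plasmacytoid dendritic-like cells they summed to 3604 CPM in the tdTomato+ library, against 258 CPM in the tdTomato- library. The part of this RNA in the levels was not tested. The 3641 tdTomato+ cells that mixed T cell and endothelial genes had 229 CPM of *Il2rb*, 282 CPM of *Il2rg* and 134 CPM of *Il7r*, and since such barcodes can hold RNA of more than 1 cell, these values were assigned to no class.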

How the data were processed

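For each sort the authors deposited a matrix of raw UMI counts, made with Cell Ranger 10.0.0 (matrix header), and the submitters' notes name mm10. The contig files, deposited by the authors, list assembled γ and δ chains with their UMI counts; productive contigs gave V genes. All 33696 genes were kept, and 31961 IDs were found in GENCODE M21.

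Cells needed at least 300 genes and at most 10% mitochondrial counts. From log-transformed, depth-scaled counts, 2000 variable genes without the 6 members, receptor segments and mitochondrial genes gave 30 principal components, a graph of 15 neighbours and clusters at resolution 1 (seed 0). Lymphocyte clusters were clustered again at 0.5. No doublet caller removed cells; clusters with *Kdr* and *Stab2* together at 800 CPM or more were kept apart as mixed, and Scrublet scores served as an alternative. Clusters were named from marker lists (a γδ class needed 200 CPM of *Trdc* over both libraries), and the limits used in naming were set after the clusters had been seen. The names are rebuilt here and may differ from the study's, which used *Il7r* to name innate lymphoid cells. The members and the lists were chosen with earlier results of these data known.

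CPM are counts summed over the cells of a class per library, with exact Poisson intervals; shares have exact binomial and ratios exact conditional binomial intervals, all at 95% and for counting error only. Classes under 20 cells in a library were not compared. Text names all 6 members, the pathway genes that were called or needed, and the 3 genes most like each member. The call rule was tried on simulated Poisson counts without variation between cells or libraries. That trial cannot tell how often the rule errs where such variation is present. Clustering used scanpy 1.11.5 with leidenalg 0.10.2 and igraph 0.11.9, intervals scipy 1.17.1, and the rest pandas 2.3.3 and matplotlib 3.10.9 under python 3.11.15. Alternatives covered filters, doublets, clustering, gates, thinning, contigs and call limits.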

Additional observations from a re-analysis of the deposited data

Results flagged for a closer look

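The ratio of tdTomato+ over tdTomato- *Il2ra* went in opposite directions between classes, with intervals on opposite sides of 1: it was 2.4 in γδ Ncr1-like and 3.44 in γδ naive-like cells, but 0.54 in effector CD8-like cells, where the levels were 5.71 and 10.6 CPM. With per-cell marker gates the effector CD8-like ratio was 1.05. For *Il7r* the ratio was 4.48 in γδ Ncr1-like cells, and below 1 in γδ naive-like (0.564), Il4/Zbtb16 T (0.614), regulatory T-like (0.663), effector CD8-like (0.799), naive CD4-like (0.813) and naive CD8-like cells (0.854). These differences between classes were not tested, since there was 1 library per sort.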

How the results depend on the processing

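Of 174 levels (6 genes in 29 groups), 104 were at 100 CPM or more, and 81 to 104 under the 13 alternatives, the lowest with per-cell marker gates, where only 138 levels could be given. Of the 104 levels, 13 moved by over 1.5 times under at least 1 alternative. In the tdTomato+ library these were *Il7r* in γδ naive-like cells (530 CPM at resolution 1.5, against 219 CPM), γδ proliferating-like (48.7 without cells with endothelial counts, against 125) and effector CD4-like cells (235 with the stricter filter, against 417), *Il2rb* in effector CD4-like (126 with the members among the variable genes, against 361), γδ proliferating-like (709.5 at resolution 0.7, against 388), γδ naive-like (307 at resolution 1.5, against 195) and γδ Gzmk-like cells (180.0 thinned, against 316), and *Il21r* in regulatory T-like cells (63.1 thinned, against 131). In the tdTomato- library they were *Il2rb* (134 with the stricter filter, against 277) and *Il2ra* (333 thinned, against 200) in αβ Il17a/Il23r T cells, *Il2ra* in ILC1-like (53.4 with seed 1, against 101) and regulatory T-like cells (298 thinned, against 198), and *Il7r* in γδ naive-like cells (604 with gates, against 389). The γδ subset with the highest level stayed the same for all 6 genes in the tdTomato- library at resolutions 0.7 and 1.5 and after thinning. The count of members called between the libraries was less stable. From 3 it became 8 with the stricter filter of 800 genes and 5% mitochondrial counts and 8 without the 5% of cells with the most UMIs. It was 5 without cells with Scrublet scores above 0.2, 5 at resolution 0.7 and 6 with the mean of per-cell CPM. With contig-bearing γδ cells only it was 1, but there some γδ classes had too few cells to be compared. At a ratio of at least 1.5 it was 14, and the pathway genes called became 41 instead of 11. The share of all genes called was not computed under these alternatives, so the counts cannot be set against genes at large. Direction turned for *Il7r* in γδ Ncr1-like cells (0.825 at resolution 0.7, 0.701 at 1.5, 0.601 with seed 1, 0.652 with gates), for *Il2ra* in γδ naive-like cells (0.45 with the stricter filter, 0.476 at resolution 1.5), for *Il2ra* in γδ Ncr1-like cells after thinning (0, no tdTomato+ UMI left) and for *Il7r* in NK-like cells with gates (0.0481, called lower there, against 1.39). Other, uncalled ratios whose interval left out 1 also crossed 1. Without cells with endothelial counts *Il2ra* and *Il7r* in γδ proliferating-like cells went to 0.549 and 0.69. After thinning *Il21r* went to 1.35 in γδ naive-like and 1.2 in NK-like cells. With gates *Il2ra* in effector CD8-like cells went to 1.05. *Il7r* in γδ naive-like, *Il2rg* in γδ Gzmk-like, *Il21r* in naive CD4-like and *Il2rb* in effector CD4-like and ILC1-like cells crossed too. The causes were not tested. No paired analysis was possible because each sort has 1 library. Classes of 24 to 58 cells in the smaller library (αβ Il17a/Il23r, γδ naive-like, γδ proliferating-like, γδ Gzmk-like, γδ T17-like and ILC1-like) limit the precision most.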
